A study of Homo sapiens with 60 samples.

Results

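The genes described here are 10 components of the switch that takes a human cell out of G1 phase and into DNA replication. They are the D-type cyclin genes CCND1 and CCND3, the E-type cyclin genes CCNE1 and CCNE2, the cyclin-dependent kinase genes CDK4, CDK6 and CDK2, the inhibitor genes CDKN1B and CDKN2C, and RB1, the retinoblastoma gene. They were chosen by role and by name and found by matching Ensembl identifiers to gene symbols, and they are 10 of the 60675 genes in the deposited count table. All 10 passed the filter on low counts, which left 17129 genes for testing.

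RNA came from A549, an established human lung carcinoma line, after 24 h of treatment, and 60 mRNA libraries formed 20 groups of 3. The treated groups received a hot-water extract of 1 of 6 crude drugs or, as the positive control, the PI3-kinase inhibitor wortmannin at 10 µM, and the vehicle group received DMSO, at 0.1% by the sample labels and 2% by the design text. Both gingers were among the drugs: ZRR stands for Zingiberis Rhizoma Recens, fresh by its name, and ZR for Zingiberis Rhizoma, the dried form. The extracts of jujube, ZF (Zizyphi Fructus), of PT (Pinelliae Tuber) and of both gingers had doses of 20, 100 and 500 µg/mL. For CR, Coptidis Rhizoma, the doses were 5.2, 26 and 130 µg/mL, and for SR, Scutellariae Radix, they were 9.2, 46 and 230 µg/mL, set from the IC20 of those extracts. The 3 doses of an extract are called low, medium and high here. The labels' protocols describe the starting plants as dried, which covers both gingers, and do not say whether the extract and wortmannin groups also received DMSO. The labels do not say whether the 3 libraries of a group came from separate cultures, so a p-value here measures no more than the spread between those libraries, which may be technical. Vehicle and treated libraries differ in the first part of their sample codes, which is A1 for vehicle, 1 for wortmannin and 2, 3 or 4 for the extracts. That part cannot be told apart from treatment in any comparison with vehicle. High and low doses of an extract, and both gingers, share a first number.

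In G1 phase D-type cyclins, made in response to growth signals, join CDK4 or CDK6 and begin to phosphorylate the RB protein. RB then releases E2F transcription factors, which switch on the genes of DNA replication and the E-type cyclins, and cyclin E with CDK2 completes the phosphorylation of RB. Inhibitors of the INK4 family, such as the p18 protein of CDKN2C, block CDK4 and CDK6, while those of the Cip and Kip family, such as the p27 protein of CDKN1B, bind cyclin and kinase together. A549 cells lack the INK4 genes CDKN2A and CDKN2B and keep RB1.

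CCND3, CDKN2C, CCNE2 and CDK2 were lower at the high dose of CR and at the high dose of SR than in vehicle. CCND3 was also lower with wortmannin and with the high dose of both gingers, and CCND1 was lower with wortmannin, both gingers and SR. CCNE1 was lower at the high dose of SR and higher with wortmannin, and CDKN1B was higher at the high dose of SR. CDK4, CDK6 and RB1 were each called once by edgeR as fitted here, in CR, and their levels moved with the length slope of the libraries described below. Of the 10 genes, edgeR called none at any dose of PT or ZF against vehicle. DESeq2 called CCND1 at the high dose of PT (adjusted p = 0.027). With no filter on low counts edgeR called CCND1 and CDK6 there (adjusted p = 0.0112 and 8.83e-05) and CDK6 at the low, medium and high doses of ZF (8.96e-05, 0.0305 and 0.0209), each lower than vehicle.

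The number of genes called (edgeR adjusted p under 0.05 within a comparison) stood beside different backgrounds. The high dose of SR called 7 of the 10 genes, where 23.9% of all tested genes were called. The medium dose of CR called 7 of 10 against 23.2%, its low dose 4 of 10 against 17.7% and its high dose 4 of 10 against 35.1%. Wortmannin called 3 of 10 against 25.3%. The shares for wortmannin and for the high dose of CR were near those of all genes, and the size of the changes in CR is taken up gene by gene below. Both gingers called 2 of 10 at the high dose, against 4.03% of all genes for ZRR and 5.35% for ZR. PT and ZF called 0 of 10 at the high dose, against 1.40% and 0.00584%. Over those 20 tests edgeR gave 3 with an unadjusted p under 0.05, DESeq2 called 1, and edgeR with no filter on low counts called 3.

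The lower doses of the 5 extracts other than CR gave no edgeR call among the 10 genes. At the medium dose edgeR called 0 of 50 (5 at an unadjusted p under 0.05, 1 by DESeq2, 6 with no filter on low counts), where 0.280% of all genes were called for ZRR, 0.922% for ZR, 0.0175% for PT, 0% for SR and 0.0117% for ZF. At the low dose it called 0 of 50 (9 at an unadjusted p under 0.05, 0 by DESeq2, 3 with no filter), where the shares were 0.111% for ZRR, 0.00584% for ZR and for SR, 0% for PT and 0.0117% for ZF. All 19 comparisons with vehicle share the same 3 vehicle libraries.

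**Figure D1:**
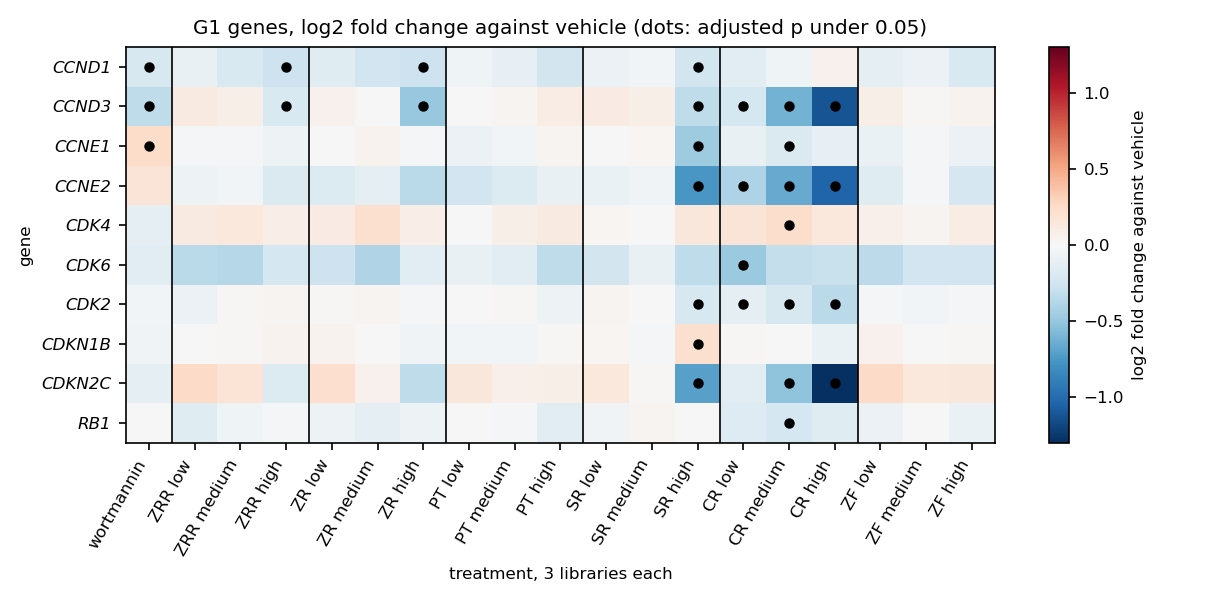
Colour gives the log2 fold change against vehicle of each of the 10 genes (rows) in each of the 19 treatments (columns, 3 libraries each), with blue for lower and red for higher, and a dot marks an edgeR adjusted p under 0.05. The darkest cells are CDKN2C, CCND3 and CCNE2 at the high dose of CR, at -1.30, -1.12 and -1.04.

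Levels are given as CPM, counts scaled to the TMM-adjusted library size, and between genes as CPM per kb of the longest transcript. In the vehicle libraries the order of levels per kb was CCND1 (116 ± 2.76), CCND3 (102 ± 3.59), CDK4 (86.5 ± 2.44), CDK2 (31.6 ± 0.214), CDKN1B (13.0 ± 0.386), CCNE1 (11.9 ± 0.329), CDK6 (11.9 ± 0.987), RB1 (10.8 ± 0.457), CDKN2C (5.23 ± 0.316) and CCNE2 (2.47 ± 0.223), each a mean ± SD of 3 libraries. CDK6 did not differ from CDKN1B, CCNE1 or RB1 beyond their spread, so its place among them is not settled. Library totals ran from 17420373 to 36479629 counts. The epithelial markers KRT8 and KRT18 had 2030 to 4050 and 1670 to 3120 CPM, and AKR1B10, an aldo-keto reductase abundant in A549, had 2530 to 3610 CPM. EPCAM (3.61 to 6.96 CPM) and TFF1 (1.99 to 3.73 CPM) were low. CDKN2A and CDKN2B had 0 counts in all 60 libraries. Among 10 markers of leukocytes, fibroblasts and endothelium, 8 stayed at or below 0.175 CPM, and LUM and COL3A1 reached 0.902 and 2.49 CPM.

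CCND3 and CDKN2C had the most similar profiles of any 2 of the 10 genes, and the start of each is shown here with that of CCNE1, which was lowest at the high dose of SR. Each sequence is a RefSeq window (GRCh38.p14) from 250 bases before to 50 bases after an annotated start, printed 5′ to 3′ on the strand of the gene, with capitals for a GC box (GGGCGG) or an E2F-type motif on either strand, meaning the letters TTCCCGC or else the letters TTCGCGC or else the letters TTGCCGC or else the letters TTGGCGC. All other bases are in lower case.
CCND3, chr6:41941759-41942058, minus strand: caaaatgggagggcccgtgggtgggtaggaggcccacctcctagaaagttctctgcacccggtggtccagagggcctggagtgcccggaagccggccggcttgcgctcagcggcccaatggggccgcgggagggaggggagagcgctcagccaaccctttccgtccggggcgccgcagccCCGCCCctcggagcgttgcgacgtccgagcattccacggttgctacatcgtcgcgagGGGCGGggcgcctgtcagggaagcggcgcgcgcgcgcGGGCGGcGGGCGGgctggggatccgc
CDKN2C, chr1:50968456-50968755, plus strand: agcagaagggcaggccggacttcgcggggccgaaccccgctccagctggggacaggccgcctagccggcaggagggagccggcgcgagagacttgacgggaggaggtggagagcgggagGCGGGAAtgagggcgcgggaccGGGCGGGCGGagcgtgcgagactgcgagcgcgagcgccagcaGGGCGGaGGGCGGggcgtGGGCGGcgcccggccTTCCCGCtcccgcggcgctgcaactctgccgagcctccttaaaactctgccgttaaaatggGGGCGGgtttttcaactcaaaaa
CCNE1, chr19:29811741-29812040, plus strand: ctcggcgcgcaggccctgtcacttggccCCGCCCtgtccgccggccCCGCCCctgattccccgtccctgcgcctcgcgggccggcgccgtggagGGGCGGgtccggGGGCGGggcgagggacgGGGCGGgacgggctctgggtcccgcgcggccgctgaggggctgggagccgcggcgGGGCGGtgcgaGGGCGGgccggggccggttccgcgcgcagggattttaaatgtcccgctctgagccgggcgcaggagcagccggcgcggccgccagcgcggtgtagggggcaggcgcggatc
The CDKN2C window holds 2 E2F-type matches, GCGGGAA starting 131 bases before the annotated start and TTCCCGC starting 34 bases before it, along with 6 GC boxes, of which the first pair overlaps. The CCND3 and CCNE1 windows hold 4 and 7 GC boxes and none of these E2F-type letters. RefSeq windows were searched for 7 of the 10 genes, 12 windows in all. CCND1 and CDK2 had no window and CCNE2 was left out of the search, so the counts do not cover these genes. An E2F-type match was in 1 of the 12 windows, against 13% of 35116 windows in the same table. A GC box was in 8 of the 12 windows, against 45% of all windows. None of the 12 held the longer E2F form (TTTCCCGC, TTTCGCGC, TTTGCCGC or TTTGGCGC, 3.31% of all windows) or the CHR element TTTGAA (15.2%), and 1, another CCND3 window, held the forkhead motif GTAAACA (3.42%). The search for the shorter E2F form was added after the longer one gave no match, and no E2F-type match overlapped a GC box. These gene-level counts do not show which start was used, and a match is only a description of the letters.

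CCND3 (chr6:41934933-42050357, minus strand, GRCh38), which encodes cyclin D3, was called lower in 7 of the 19 comparisons with vehicle. In the CR series it had 237, 241 and 253 CPM in the vehicle libraries, 203, 203 and 219 CPM at the low dose, 170, 156 and 155 CPM at the medium dose and 113, 108 and 115 CPM at the high dose. No 2 of these 4 groups overlapped, and the 3 libraries of the high dose lay below all other 57. Against vehicle CCND3 fell by 0.23 ± 0.05 (log2, SE), 0.61 ± 0.05 and 1.12 ± 0.05 at the low, medium and high doses (edgeR adjusted p = 0.00179, 4.46e-13 and 4.73e-23), and at the high dose it was at 0.46 of its vehicle level. The low-dose call was lost when replicate 1 was left out of every group. In these bulk libraries fewer cells with a transcript and less of it per cell cannot be told apart.

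Wortmannin libraries had 202, 193 and 187 CPM of CCND3, a difference of -0.33 ± 0.05 from vehicle (edgeR adjusted p = 2.37e-06). The SR libraries of the high dose had 193, 190 and 198 CPM, a difference of -0.33 ± 0.05 (edgeR adjusted p = 1.95e-06). Both sets lay wholly below the vehicle libraries, at about the same distance. The high dose of ZR gave 166, 178 and 178 CPM of CCND3, which fell by 0.49 ± 0.05 (edgeR adjusted p = 1.04e-09). With the high dose of ZRR it had 215, 216 and 205 CPM and fell by 0.20 ± 0.05 (edgeR adjusted p = 0.0134). The ZRR call was lost with no filter on low counts and when any 1 of its 3 libraries, or vehicle replicate 2 or 3, was left out, with an edgeR adjusted p of up to 0.139 over the settings tried.

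Fresh and dried ginger were given at the same doses, so their levels can be set against each other directly. At 500 µg/mL CCND3 averaged 212 ± 6 CPM with ZRR and 174 ± 6.59 CPM with ZR (SD, n = 3 each), and the libraries did not overlap. The difference was 0.28 ± 0.05 on the log2 scale (95% interval 0.18 to 0.39, edgeR adjusted p = 0.000716), and CCND3 was the 1 gene of the 10 called there, where 0.712% of all genes were called. It was not called when replicate 1 was left out of every group. At 100 and 20 µg/mL the differences were 0.07 (95% interval -0.03 to 0.18) and 0.06 (-0.04 to 0.17), and edgeR called 0 of 20 gene tests at these doses (1 at an unadjusted p under 0.05, 0 by DESeq2), where 0.00584% and 0% of all genes were called.

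Within each ginger, CCND3 was lower at the high dose than at the low dose, by -0.32 ± 0.05 for ZRR (212 ± 6 against 265 ± 17.1 CPM) and by -0.54 ± 0.05 for ZR (174 ± 6.59 against 254 ± 18.6 CPM), with edgeR adjusted p = 2.69e-05 and 5.87e-11. In ZRR the call was lost when only the libraries compared were fitted (edgeR adjusted p = 0.0518). PT and ZF, at the same doses, gave 0.10 (95% interval -0.00 to 0.21) and -0.03 (-0.14 to 0.07). A single test with 3 degrees of freedom asked whether the high-against-low difference was the same in ZRR, ZR, PT and ZF. For CCND3 it was not (edgeR adjusted p = 2.54e-08), and CCND3 was the 1 gene of 10 called, where 2.67% of all genes were called. CDKN2C came next, with an edgeR adjusted p of 0.0971.

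CCND1 (chr11:69641087-69654474, plus strand), the gene of cyclin D1 and a classic target of growth signalling, had the highest level per kb of the 10. It had 514, 495 and 491 CPM in the vehicle libraries, and 12 of the 19 treated groups lay wholly below them, of which 4 were called. Wortmannin libraries had 445, 431 and 421 CPM, those of the high dose of ZRR 397, 418 and 431 CPM, those of ZR 432, 413 and 403 CPM and those of SR 419, 444 and 405 CPM. The fold changes were alike in size, at -0.21, -0.27, -0.27 and -0.24 on the log2 scale, each with an SE of 0.07 (edgeR adjusted p = 0.0177, 0.0118, 0.0102 and 0.00641). The SR call held in every setting scored for it. The wortmannin call was lost without vehicle replicate 1 or wortmannin replicate 3, the ZRR call without vehicle replicate 1 or ZRR high replicate 1, and the ZR call without ZR high replicate 3, with edgeR adjusted p up to 0.0533, 0.0754 and 0.0541. PT at the high dose gave a difference of -0.24 (95% interval -0.37 to -0.10), with an edgeR adjusted p of 0.0674 and a DESeq2 adjusted p of 0.027. High against low, edgeR as fitted here did not call CCND1 in ZRR, ZR or SR. With the length slope of each library as a covariate it was called lower in each (-0.29, -0.16 and -0.16, edgeR adjusted p = 2.1e-09, 0.000555 and 6.94e-05).

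In CR, edgeR did not call CCND1 against vehicle at any dose as fitted here. It had 456, 471 and 422 CPM at the low dose, 448, 509 and 484 CPM at the medium dose and 510, 531 and 522 CPM at the high dose of CR. High against low it rose by 0.21 ± 0.07 (edgeR adjusted p = 0.0165), and the high dose differed from vehicle by 0.06 (95% interval -0.08 to 0.20). The rise was lost without CR high replicate 2 or CR low replicate 3, and with the length slope of each library as a covariate it was 0.09 (edgeR adjusted p = 0.0303). With that covariate the high dose was called higher than vehicle (0.11, edgeR adjusted p = 0.00432). CCND1 overlaps LTO1 on the opposite strand, and the strand setting of the counting was not stated in the labels.

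**Figure D2:**
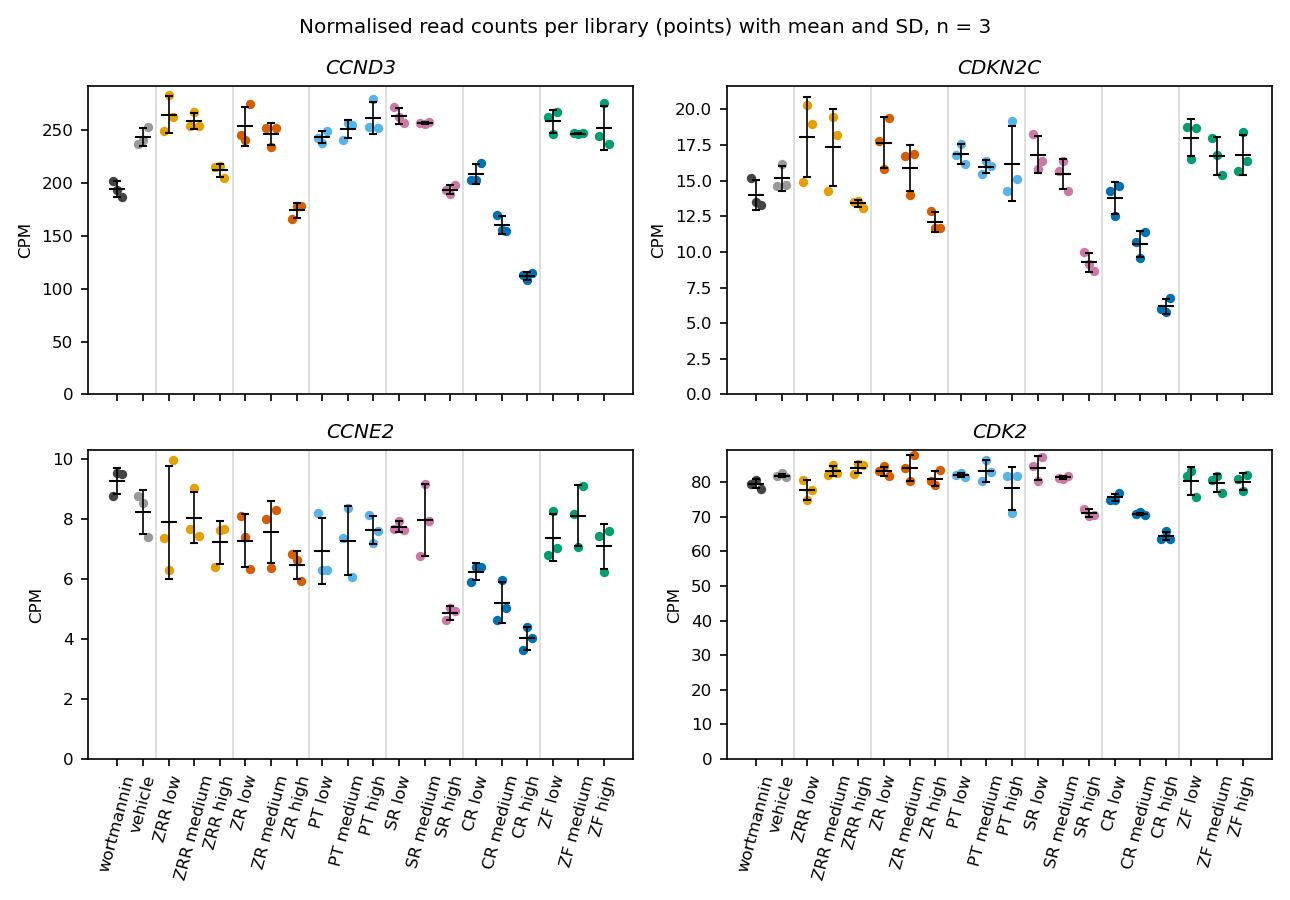
CPM of CCND3, CDKN2C, CCNE2 and CDK2 in each of the 60 libraries (points), with the mean and SD of each group of 3, for wortmannin, vehicle and the low, medium and high doses of each extract. In all 4 panels the high dose of CR is the lowest group, with means of 112, 6.18, 4.02 and 64.4 CPM.

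Both E-type cyclin genes fell at the high dose of SR. CCNE1 (chr19:29811898-29824308, plus strand), which encodes cyclin E1, had 29.3, 28.7 and 28.2 CPM with wortmannin, against 23.5, 24.4 and 24.8 CPM in vehicle libraries. The wortmannin libraries lay above all other 57, and CCNE1 rose by 0.24 ± 0.06 (edgeR adjusted p = 0.00106). In the SR series it had 23.9, 23.3 and 24.9 CPM at the low dose, 25, 24.4 and 24.7 CPM at the medium dose and 16.8, 16.9 and 19.2 CPM at the high dose. The high dose lay below all other 57 libraries, and CCNE1 fell by 0.46 ± 0.06 there (edgeR adjusted p = 5.34e-08). In CR edgeR as fitted here called CCNE1 at the medium dose and at no other. It fell by 0.19 ± 0.06 at the medium dose (21.3 ± 1.18 CPM, against 24.2 ± 0.671 CPM in vehicle, edgeR adjusted p = 0.0162), a call lost in 7 of 13 settings, among them no filter on low counts, any replicate number left out of all groups and vehicle replicate 2 or 3 left out. The high dose of CR gave -0.11 (95% interval -0.23 to 0.00), and with the length covariate it was called (-0.13, edgeR adjusted p = 0.0464).

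CCNE2, on chromosome 8, encodes cyclin E2 and is an E2F target. It had 8.77, 8.55 and 7.39 CPM in vehicle libraries, 5.92, 6.41 and 6.4 CPM at the low dose of CR, 4.64, 5.98 and 5.02 CPM at the medium dose and 3.64, 4.39 and 4.03 CPM at the high dose. Each CR group lay wholly below vehicle, and the high dose lay below all other 57 libraries. CCNE2 fell by 0.40 ± 0.14, 0.66 ± 0.14 and 1.04 ± 0.14 at the 3 doses of CR (edgeR adjusted p = 0.0333, 0.000225 and 3.28e-08). The low-dose call was lost without any 1 of the 3 low-dose libraries or vehicle replicate 1 or 2 and with the length covariate, and the medium-dose call without replicate 1 of all groups (edgeR adjusted p up to 0.187 and 0.0602). SR at the high dose left 4.62, 5.05 and 4.93 CPM of CCNE2, which fell by 0.76 ± 0.14 (edgeR adjusted p = 3.42e-05). Wortmannin libraries, at 8.79, 9.53 and 9.51 CPM, lay just above those of vehicle, with a difference of 0.17 (95% interval -0.09 to 0.43) that was not called. CCNE2 had the lowest level per kb of the 10 genes in vehicle and overlaps INTS8 on the opposite strand.

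**Figure D3:**
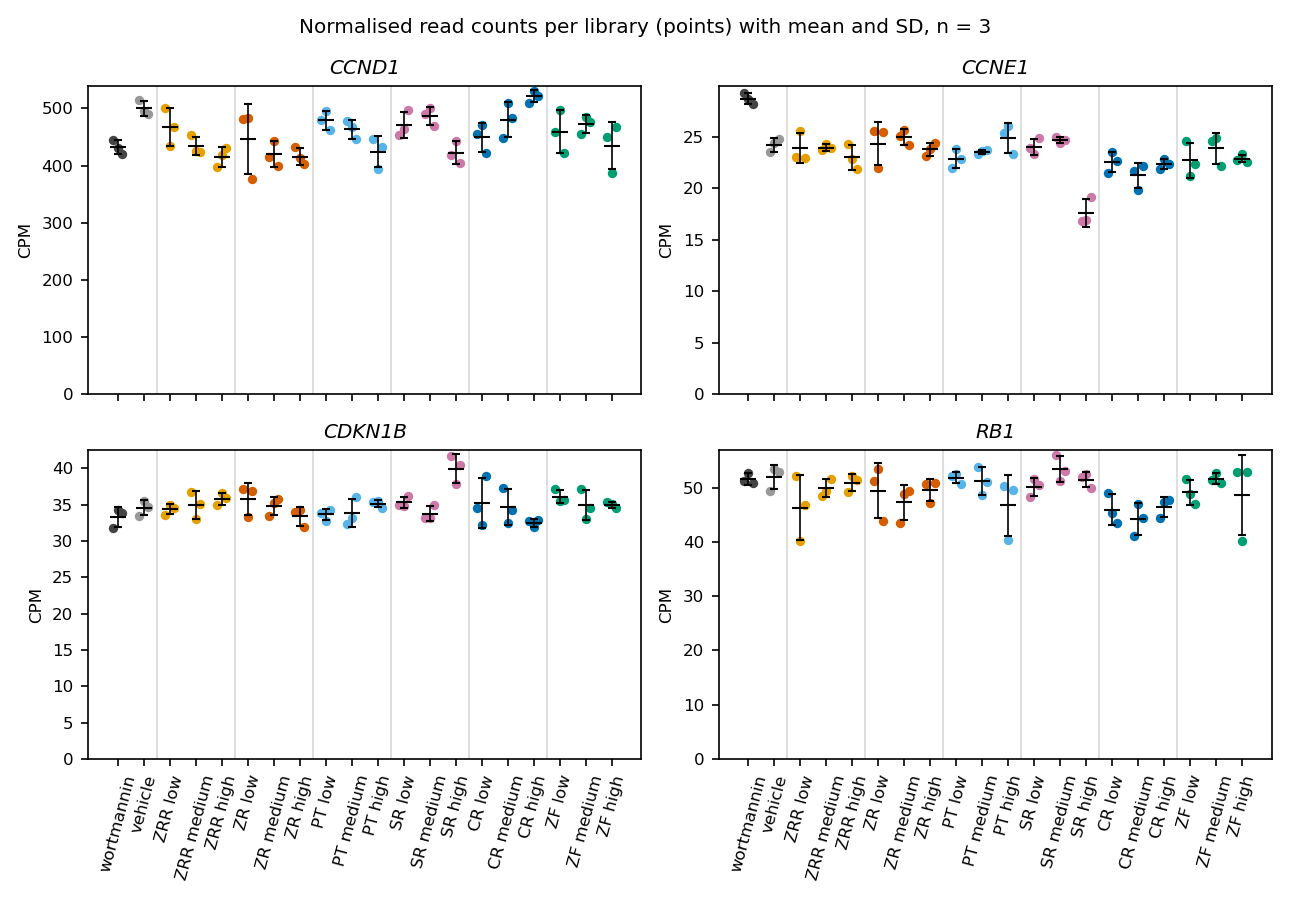
CPM of CCND1, CCNE1, CDKN1B and RB1 in each of the 60 libraries (points), with the mean and SD of each group of 3, in the same order of groups. CCNE1 stands apart in 2 groups, wortmannin (28.7 CPM) and the high dose of SR (17.6 CPM), and CDKN1B is highest at the high dose of SR (40 CPM).

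CDK2 (chr12:55966769-55972784, plus strand), the kinase partner of cyclin E, had the tightest replicates of the 10 genes, with a median coefficient of variation of 1.86%. It had 81.7, 82.6 and 81.6 CPM in vehicle libraries, 75, 75 and 76.9 CPM at the low dose of CR, 70.9, 71.3 and 70.7 CPM at the medium dose and 63.7, 65.8 and 63.7 CPM at the high dose. The 4 groups did not overlap and stood in order of dose. CDK2 fell by 0.12 ± 0.04, 0.21 ± 0.04 and 0.35 ± 0.04 (edgeR adjusted p = 0.0418, 0.00011 and 1.17e-09). The low-dose call was lost when any 1 of the 6 libraries compared was left out, with no filter on low counts, when only those libraries were fitted and with the length covariate defined below (edgeR adjusted p up to 0.432, and 0.229 with the covariate, at -0.08). In SR at the high dose CDK2 had 72.4, 70.4 and 70.6 CPM and fell by 0.21 ± 0.04 (edgeR adjusted p = 0.000127). With wortmannin it was 79.5 ± 1.26 CPM, just below the vehicle libraries at 82 ± 0.557 CPM, a difference of -0.04 (95% interval -0.13 to 0.04). CDK2 overlaps PMEL on the opposite strand.

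Levels of CDK6, RB1 and CDK4 moved with a property of the libraries. In each library log2 CPM was regressed on log2 transcript length, and the slope, less the mean of the 60 libraries, was 0.074, 0.041 and 0.016 in the vehicle libraries, 0.06 on average with wortmannin, and lowest on average at the low dose of CR (-0.05). Over the 20 group means the Pearson correlation of a gene's level with the slope was 0.86 for CDK6, whose longest transcript of 11.6 kb is the longest of the 10, 0.73 for RB1 (4.79 kb) and -0.79 for CDK4 (2.08 kb). For the other 7 genes it lay between -0.26 and 0.22. These points share the same libraries as the slope and are given as a description. Within the high dose of ZF, replicate 2 had a slope of -0.112 and 83.1 CPM of CDK6, against slopes of 0.027 and 0.022 and 133 CPM in each of replicates 1 and 3. Within the low dose of ZR, replicate 3 had a slope of -0.121 and 78.6 CPM of CDK6, against 133 CPM in each of replicates 1 and 2.

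**Figure D4:**
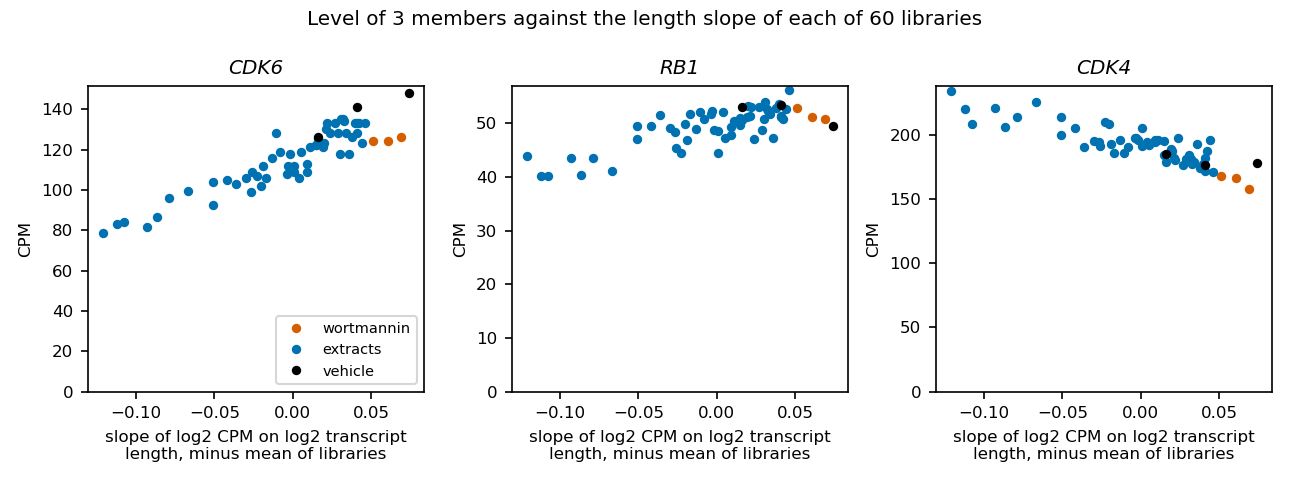
CPM of CDK6, RB1 and CDK4 (vertical axes, from 0) against the length slope of each of the 60 libraries (horizontal axes, the regression slope defined in the text, less the mean of the libraries). CDK6 and RB1 rise and CDK4 falls with the slope, with correlations over the 20 group means of 0.86, 0.73 and -0.79, and vehicle and wortmannin libraries lie toward the right.

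CDK6 (chr7:92604921-92836594, minus strand), a kinase partner of the D-type cyclins, had 106, 109 and 81.4 CPM at the low dose of CR, against 148, 141 and 126 CPM in vehicle libraries. The difference of -0.48 ± 0.16 was its 1 call (edgeR adjusted p = 0.0312). With the length slope as a covariate it was -0.05 (edgeR adjusted p = 0.59), and the call was also lost without CR low replicate 3 or vehicle replicate 1 or 2. With the covariate CDK6 was instead called lower, against vehicle, with wortmannin (-0.23, edgeR adjusted p = 2.46e-06), at the high dose of SR (-0.17, 0.000695) and at the high dose of CR (-0.15, 0.00114). With no filter on low counts CDK6 was called lower than vehicle in 12 further comparisons, among them the medium doses of ZR (-0.40, edgeR adjusted p = 1.88e-07) and ZRR (-0.37, 4.45e-06) and the high dose of SR (-0.33, 1.69e-05). The vehicle group had the highest CDK6 level of the 20. CDK6 overlaps the antisense gene AC002454.1.

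CDK4 (chr12:57747727-57756013, minus strand), the other partner of the D-type cyclins, had 225, 197 and 210 CPM at the medium dose of CR, against 178, 176 and 185 CPM in vehicle libraries. It rose by 0.23 ± 0.07 (edgeR adjusted p = 0.0183), which became 0.09 with the length covariate (edgeR adjusted p = 0.0305), and the call was lost without vehicle replicate 1 or 2, or replicate 1 of all groups. With wortmannin CDK4 had 166, 168 and 158 CPM, below all other 57 libraries, and the difference from vehicle was -0.13 (95% interval -0.28 to 0.02), not called. It was called with the length covariate (-0.10, edgeR adjusted p = 0.0102) and when only the libraries compared were fitted (-0.13, 0.0196), settings that also called CDK4 higher at the high doses of SR (0.08 and 0.15, edgeR adjusted p = 0.0474 and 0.0216) and CR (0.08 and 0.14, 0.0335 and 0.00541). CDK4 overlaps TSPAN31 on the opposite strand.

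RB1 (chr13:48303726-48599436, plus strand), whose protein restrains E2F, varied least between groups, with the highest mean 1.21 times the lowest. As fitted here it was called once, at 41.1, 47 and 44.5 CPM at the medium dose of CR, against 49.4, 53.4 and 53 CPM in vehicle libraries (-0.23 ± 0.08, edgeR adjusted p = 0.0292). With the length covariate the value was -0.10 (edgeR adjusted p = 0.132), and the call was lost without vehicle replicate 2 or 3, or replicate 1 or 3 of all groups. When only the libraries compared were fitted, RB1 was called at the high dose of CR (-0.16, edgeR adjusted p = 0.00801). RB1 at the high dose of SR averaged 51.5 CPM, against 51.9 CPM in vehicle, a difference of -0.01 (95% interval -0.17 to 0.15). RB1 overlaps LPAR6 on the opposite strand.

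The inhibitor genes CDKN2C and CDKN1B moved in opposite directions at the high dose of SR. CDKN2C (chr1:50960745-50974633, plus strand) had the widest range of group means, the highest 2.93 times the lowest. In the CR series it had 14.6, 16.2 and 14.7 CPM in vehicle libraries, 14.3, 12.5 and 14.6 CPM at the low dose, 10.7, 9.56 and 11.4 CPM at the medium dose and 5.98, 5.8 and 6.77 CPM at the high dose. The low dose met the vehicle range at 14.6 CPM, and the medium and high doses lay wholly below vehicle. CDKN2C fell at the medium and high doses, by -0.52 ± 0.11 and -1.30 ± 0.11 on the log2 scale (edgeR adjusted p = 0.000244 and 2.76e-13). At the low dose the value was -0.15 (95% interval -0.36 to 0.07), and -0.34 with the length covariate (edgeR adjusted p = 0.0062). In SR at the high dose it had 9.99, 9.15 and 8.68 CPM and fell by 0.71 ± 0.11 (edgeR adjusted p = 2.08e-06).

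In the gingers CDKN2C was lower at the high dose than at the low dose. With ZRR it had 13.5, 13.6 and 13.1 CPM at the high dose and 14.9, 20.3 and 19 CPM at the low dose, a difference of -0.43 ± 0.11 (edgeR adjusted p = 0.0103). With ZR it had 12.9, 11.7 and 11.7 CPM at the high dose and 17.8, 15.8 and 19.4 CPM at the low dose, a difference of -0.54 ± 0.11 (edgeR adjusted p = 0.000509). Neither pair overlapped. The ZRR call was lost without ZRR high replicate 3 or ZRR low replicate 2 or 3 and without the 3 libraries of lowest length slope, and both calls were lost when only the libraries compared were fitted (edgeR adjusted p of 0.164 at most and 0.0945). Against vehicle the high doses gave -0.18 and -0.33, with edgeR adjusted p = 0.46 and 0.0651. The ZR difference was called with the length covariate (-0.38, edgeR adjusted p = 0.000735), with no filter on low counts (0.035) and when only the libraries compared were fitted (0.0127). The low doses of both gingers averaged 18.1 and 17.7 CPM, against 15.2 CPM in vehicle.

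CDKN1B (chr12:12715058-12722371, plus strand), whose p27 protein is best known to be set by its turnover, had 41.7, 37.8 and 40.4 CPM at the high dose of SR, against 33.5, 35.5 and 34.7 CPM in vehicle libraries. It rose by 0.21 ± 0.05 (edgeR adjusted p = 0.00325). Among the 10 genes this was the only rise that edgeR as fitted here called at any high dose against vehicle. At the low dose of SR it had 34.9, 34.8 and 36.2 CPM and at the medium dose 33.2, 33.1 and 34.9 CPM, so the high dose stood alone within the series. High against low it rose by 0.18 ± 0.05 (edgeR adjusted p = 0.0138), a call lost with no filter on low counts and without SR high replicate 1 or 3 or SR low replicate 2. With wortmannin the 3 libraries had 31.8, 34.3 and 33.8 CPM and overlapped vehicle, with a difference of -0.05 (95% interval -0.17 to 0.06). CDKN1B transcription is known to be driven by FOXO factors, which PI3-kinase signalling holds in check.

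Steps between doses were compared within each extract. High against low, SR called 6 of 10 genes (20.4% of all genes) and CR 5 of 10 (25.4%), while ZRR and ZR called 2 each (4.17% and 4.64%) and PT and ZF 0 each (0.549% and 0%; over both, 2 at an unadjusted p under 0.05 and 0 by DESeq2). In SR, CCND3 had 194 CPM at the high dose and 263 CPM at the low dose (-0.44 ± 0.05), CCNE1 17.6 and 24.1 CPM (-0.45 ± 0.06), CCNE2 4.86 and 7.76 CPM (-0.67 ± 0.14), CDK2 71.1 and 84.2 CPM (-0.24 ± 0.04) and CDKN2C 9.27 and 16.8 CPM (-0.86 ± 0.11), with edgeR adjusted p = 2.73e-09, 9.65e-08, 0.000295, 9.45e-06 and 3.72e-08. In CR, CCND3 had 112 CPM at the high dose and 208 CPM at the low dose (-0.89 ± 0.05), CCNE2 4.02 and 6.24 CPM (-0.64 ± 0.14), CDK2 64.4 and 75.6 CPM (-0.23 ± 0.04) and CDKN2C 6.18 and 13.8 CPM (-1.15 ± 0.12), with edgeR adjusted p = 1.15e-18, 0.000631, 1.85e-05 and 3.64e-11. These 9 falls held in every setting scored for them, within libraries whose sample codes share a first number.

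Medium against low, CR called CCND3 (-0.38 ± 0.05) and CDKN2C (-0.38 ± 0.11), at edgeR adjusted p = 1.71e-06 and 0.042, where 3.10% of all genes were called. That CDKN2C call was lost without CR low replicate 1 or 3 or any replicate number of all groups, with the replicate block and when only the libraries compared were fitted, and the CCND3 call was not. The other 5 extracts called 0 of 50 in medium against low (1 at an unadjusted p under 0.05, 0 by DESeq2), where the shares of all genes were 0.0175% for ZRR and for PT, 0.0292% for ZR, 0.00584% for SR and 0% for ZF. With the length covariate 1 of the 50 was called, CCND1 in ZRR (-0.16, edgeR adjusted p = 0.00512). Curvature, the sum of the high and low doses less 2 times the medium dose on the log2 scale, asks whether the step to the high dose is the larger. In SR 5 of 10 genes were called for it (6.21% of all genes): CCNE2 (-0.75), CDKN2C (-0.61), CCNE1 (-0.52), CCND3 (-0.37) and CDKN1B (0.31), with edgeR adjusted p = 0.0376, 0.0324, 0.000344, 0.00452 and 0.0395. In ZR CCND3 was called (-0.45 ± 0.09, edgeR adjusted p = 0.0126), where 0.0701% of all genes were. All 6 calls were lost when replicate 1 was left out of every group. In ZRR, PT, CR and ZF 0 of 40 were called (2 at an unadjusted p under 0.05, 0 by DESeq2). The shares of all genes were 0.00584% for ZRR and PT, 0.0234% for CR and 0% for ZF. With the length covariate 1 of the 40 was called, CCND3 in ZRR (-0.25, edgeR adjusted p = 0.00495). For CCND3 in CR the curvature as fitted here was -0.14 (95% interval -0.32 to 0.04).

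Across the 20 group means, the levels of CCND3 and CDKN2C had a Pearson correlation of 0.94, and CCNE2 and CDK2 correlated with CDKN2C at 0.87 and 0.85. CCND1 correlated with CCND3 at -0.22, and CDK4 with CDK6 and RB1 at -0.72 and -0.73. Among 9972 other genes, the closest to CCND3 by the correlation of group mean log2 CPM were FGFR4 (0.977), PBK (0.968) and SPC24 (0.968), and the closest to CDKN2C were SEMA6B (0.978), NAP1L4 (0.976) and SPC25 (0.963). PBK is a mitotic kinase, and SPC24 and SPC25 are subunits of the NDC80 complex of the kinetochore. MCM6 is a subunit of the replicative helicase and RFC5 of the loader of the replication clamp. Roles are given for only some of the neighbours, and not for FGFR4 and SEMA6B, the closest to CCND3 and CDKN2C. The closest to CCNE2 were SLF1 (0.964), MCM6 (0.959) and FAM111B (0.956), and the closest to CDK2 were SFT2D2 (0.946), ERCC6L (0.945) and RFC5 (0.944). CDK6 lay closest to BIRC6 (0.970), ABHD2 (0.968) and ARHGEF12 (0.966), CDK4 to YDJC (0.939), POLR2G (0.938) and NAA10 (0.932), and RB1 to PDE10A (0.919), FTO (0.900) and ZNF292 (0.898). CCND1, CCNE1 and CDKN1B had no neighbour above 0.895, the closest being ENAH (0.801), UBQLN2 (0.895) and TMEM41B (0.854). All these values are descriptions over 20 group means of the same libraries, which also differ in their length slope.

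Genes that RB and E2F control were followed as a list of 16 E2F targets of S phase entry, among them the MCM2 to MCM7 helicase genes, RRM2 and CCNA2. All 16 were called lower at the high dose of CR, with a median log2 fold change of -0.55, beside a median of 0.01 over all genes, of which 16.7% were called lower. The largest fall was that of RRM2, a subunit of ribonucleotide reductase, at 171 CPM against 334 CPM in vehicle (-0.96 ± 0.03, edgeR adjusted p = 2.34e-27). At the low and medium doses of CR 9 and 12 of the 16 were called lower and 1 and 0 higher, with medians of -0.15 and -0.25, where 9.15% and 11.1% of all genes were called lower. In SR at the high dose 11 were lower and 0 higher (median -0.23), where 10.9% of all genes were called lower, led by MCM6 at 112 against 158 CPM (-0.50 ± 0.03, edgeR adjusted p = 1.43e-16). With wortmannin 4 were lower and 1 higher (median -0.08), near the 25.3% of all genes called in either direction, and CCNA2, the gene of cyclin A2, was at 74.7 against 103 CPM (-0.47 ± 0.04, edgeR adjusted p = 7.54e-12). ZRR and ZR at the high dose called 2 and 3 lower and 0 higher, with medians of -0.07 and -0.09, where 4.03% and 5.35% of all genes were called in either direction. PT and ZF at the high dose had medians of 0.03 and 0.00.

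**Figure D5:**
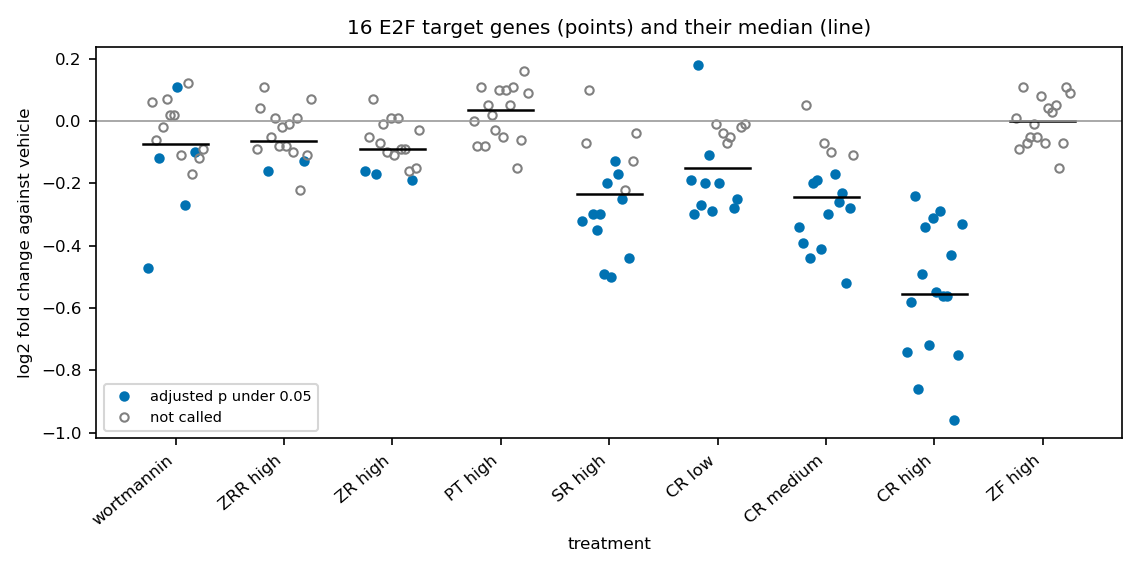
Log2 fold change against vehicle of each of 16 E2F target genes (points, filled where the edgeR adjusted p was under 0.05) in wortmannin, the high doses of ZRR, ZR, PT, SR and ZF, and all 3 doses of CR, with a line at the median of the list. All 16 points of the high dose of CR are filled and below 0, and the median falls from -0.15 through -0.25 to -0.55 over the doses of CR.

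Among the other inhibitor genes, CDKN1A (p21), CDKN1C (p57) and CDKN2D (p19) were tested, while CDKN2A, CDKN2B and the cyclin gene CCND2 did not pass the filter. CDKN1A had 134, 153 and 199 CPM at the low, medium and high doses of CR and 165 CPM at the high dose of SR, against 111 CPM in vehicle. It rose by 0.28, 0.47 and 0.84 in CR and by 0.57 in SR, each with an SE of 0.05 (edgeR adjusted p = 3.28e-05, 4.44e-11, 2.86e-20 and 7.89e-14). With wortmannin and the high doses of the other 4 extracts it was within 0.06 of vehicle on the log2 scale and was not called. CDKN2D, like CDKN2C an INK4 gene, had 1.81 CPM at the high dose of CR, against 3.16 CPM in vehicle (-0.79 ± 0.20, edgeR adjusted p = 0.00134), and at the high dose of SR it was at 2.95 CPM and not called.

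A list of 8 genes of growth signals to cyclin D and p27 mixed different roles, among them MYC, FOSL1, FOXM1, FOXO1 and FOXO3. A count of rises in it therefore gives no direction of growth signalling. At the high dose of CR 6 rose and 1 fell (median 0.75), and at that of SR 5 rose and 0 fell (median 0.56). With ZR and ZRR at the high dose 3 and 2 rose (medians 0.24 and 0.08). Of all genes, 35.1%, 23.9%, 5.35% and 4.03% were called in either direction in these comparisons. With wortmannin 1 of the 8 rose and 2 fell (median -0.01), where 25.3% of all genes were called. FOSL1, an AP-1 subunit, had 84.6 CPM at the high dose of CR, 45.9 CPM with ZR and 34.7 CPM with ZRR, against 27.9 CPM in vehicle (1.60, 0.72 and 0.31, edgeR adjusted p = 6.36e-24, 2.16e-10 and 0.00579). FOSL1 differed by -0.41 ± 0.07 between ZRR and ZR at that dose (edgeR adjusted p = 0.000429). With wortmannin FOSL1 was lower than in vehicle, at 20.4 CPM (-0.45 ± 0.08, edgeR adjusted p = 7.26e-06). EGR1, an immediate early factor, had 7.69 CPM at the high dose of SR, against 1.25 CPM in vehicle (2.62 ± 0.18, edgeR adjusted p = 1.43e-16). MYC, which drives cell growth and was named after its values were seen, had 183 CPM at the high dose of CR and 177 CPM at that of SR, against 133 CPM in vehicle (0.46 and 0.42, edgeR adjusted p = 5.01e-12 and 3.29e-10). FOXM1, a factor that drives the genes of mitosis, had 154 CPM with wortmannin and 160 CPM at the high dose of CR, against 217 CPM in vehicle (-0.50 and -0.44, edgeR adjusted p = 5.22e-12 and 4.83e-11).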

How the data were processed

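Directional mRNA libraries of A549 cells were read from both ends at 100 bases, per the labels' protocols. The tools listed are FastQC 0.11.9, RSEM 1.3.3, STAR 2.7.3a and Trim Galore 0.6.5, with the build GRCh38 (hg38), per the submitters' processing notes. The annotation release and strand setting are not given in the sources used, so reads of overlapping and antisense genes may not have been told apart. The authors deposited estimated counts per gene (expected counts), without normalization, of which 90.9% are whole numbers. Of the 269 library columns, 60 belong to this series and 209 were not used.

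The expected counts were rounded and fitted with edgeR 4.0.16 (R 4.3.3, limma 3.58.1): TMM scaling, filterByExpr by group, and a robust quasi-likelihood fit that took in all 60 libraries, had a term for each group and left 40 residual degrees of freedom. Calls used Benjamini-Hochberg adjustment over the 17129 genes of each comparison, at 0.05. An SE is the absolute log2 fold change over the square root of F. Alternatives were DESeq2 1.42.0, its size factors in edgeR, no filter on low counts and only the libraries compared. A replicate block and a length slope covariate were also tried. Each library of the vehicle, wortmannin, high-dose and low-dose groups was left out in turn. Medium-dose libraries were not left out singly. Each replicate number was also left out of all groups. Transcript lengths (the longest in GENCODE 29) covered 99.3% of tested genes, and gene positions are GENCODE 29 on GRCh38. The common biological coefficient of variation was 7.04%. No pair of replicates matched within sampling noise, the lowest chi-square per degree of freedom being 2.2, so each library counts once. The fit was also tested on simulated data.

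The 10 genes, the gene lists and the tests were chosen with earlier results of these data known. Beyond the 10, the text names at most 2 called genes per list, direction and comparison, those of smallest p, and the 3 genes of highest correlation with each of the 10 among those with a mean log2 CPM of at least 3. MYC and values of named genes at other doses were added. The values of 1 listed gene are not reported here. No protein sequence was used here.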

Additional observations from a re-analysis of the deposited data

Results flagged for a closer look

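CCND3 was flagged because its difference between high and low dose was not the same in the 4 extracts that share their doses. The 3-degree test of ZRR, ZR, PT and ZF gave an edgeR adjusted p of 2.54e-08. High against low, the log2 differences were -0.32, -0.54, 0.10 and -0.03 for ZRR, ZR, PT and ZF, each with an SE of 0.05. The 3 high-dose libraries lay below the 3 low-dose libraries in ZRR and in ZR. Over the settings tried, 1 to 3 of the 10 genes were called in this test. The gingers share the first number of their sample codes with each other and not with PT or ZF, and the part of that number in the result was not tested.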

How the results depend on the processing

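Of the 53 calls of the 10 genes, 30 held in every one of the 10 to 13 settings scored for each. A further 23 were lost in at least 1 and 0 reversed, and the cause of each change was not tested unless said. Those settings left a replicate number out of all groups only for calls that involve a medium dose. Without replicate 1 of all groups, CCND3 was lost at the low dose of CR and in ZRR against ZR, though both count among the 30. With no filter on low counts the number of genes called went to 2 for the high dose of PT against vehicle, 1 for ZF against vehicle, 1 for PT high against low, 13 for the medium doses against vehicle and 3 for the test among 4 extracts, in place of 0, 0, 0, 7 and 1. DESeq2 called 1 for the high dose of PT. A length slope covariate gave counts of 5 for wortmannin, 8 for the high dose of CR, 5 for ZRR high against low, 2 for the low doses against vehicle, 4 for medium against low and 3 among 4 extracts, in place of 3, 4, 2, 4, 2 and 1. When only the libraries compared were fitted, they were 5 for wortmannin, 4 for ZR and 7 for CR at the high dose against vehicle, 0 for ZRR and 1 for ZR high against low, 13 for the medium doses against vehicle and 1 for medium against low. Without the 3 libraries of lowest length slope (ZRR low replicate 2, ZR low replicate 3 and ZF high replicate 2), a setting chosen after seeing the data, they were 1 for PT and 7 for CR at the high dose, 12 for the medium and 7 for the low doses against vehicle and 4 for medium against low.

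Leaving out 1 library at a time, the counts ran from 2 to 3 for wortmannin, 0 to 1 for ZRR, 1 to 2 for ZR, 0 to 1 for PT, 7 to 7 for SR, 4 to 4 for CR and 0 to 0 for ZF at the high dose against vehicle, and from 1 to 2 for ZRR, 5 to 6 for SR and 4 to 6 for CR high against low. Leaving out 1 replicate number of all groups, they ran from 3 to 7 for the medium doses and 0 to 2 for the low doses against vehicle, 1 to 1 for medium against low, 0 to 2 for curvature, 0 to 1 for ginger against ginger and 1 to 1 among 4 extracts. Without ZRR high replicate 1 the ZRR count was 0, and without PT high replicate 1 the PT count was 1.

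Replicate numbers did not pair the libraries. Deviations from group means correlated at -0.01 between libraries of the same number and at 0.00 between others, 14 of 60 libraries correlated best with their own number, and 1 of 34 comparisons had all 3 pairs above 0.1. With the replicate block, 1 gene was called for medium against low in place of 2, and no other count changed. CCNE2 at 8.23 and CDKN2C at 15.2 CPM in vehicle have the lowest levels, so counting error weighs most on them.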

Other observations

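A list of 17 pocket protein, E2F and DREAM complex genes and a list of 11 genes that act on the turnover and activation of cyclins and their inhibitors had members called in both directions. In CR at the high dose 3 of the 17 were higher and 9 lower (median -0.18), where 35.1% of all genes were called and 16.7% were called lower. E2F8, an atypical repressor that is itself an E2F target, had 6.5 CPM against 15.2 CPM in vehicle (-1.23 ± 0.13, edgeR adjusted p = 3.94e-11), and E2F4, the main partner of the pocket proteins in resting cells, had 94.8 against 72.2 CPM (0.39 ± 0.05, 1.02e-09). In SR it was 1 of the 17 that was higher, and 4 were lower (median -0.06), a share near the 23.9% of all genes called. E2F8 was at 10.2 CPM (-0.58 ± 0.12, edgeR adjusted p = 0.000295). E2F4 was also higher with ZRR and ZR at the high dose, at 80.8 and 82.4 CPM (0.16 and 0.19, edgeR adjusted p = 0.0314 and 0.00592). It was the 1 gene of the 17 called in each, where 4.03% and 5.35% of all genes were called. With wortmannin 3 of the 17 were higher and 1 lower, a share near the 25.3% of all genes called. RBL2, the gene of the p130 pocket protein, was at 54.8 against 42.9 CPM in vehicle (0.35 ± 0.09, edgeR adjusted p = 0.00206). The lower gene was LIN9, at 16.8 against 20.5 CPM (-0.29 ± 0.07, edgeR adjusted p = 0.000854).

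SKP2, the F-box protein that marks p27 for destruction, had 24.6 CPM at the high dose of CR and 26.7 CPM at that of SR, against 39.3 CPM in vehicle (-0.68 and -0.56, edgeR adjusted p = 8.64e-14 and 8.33e-11). CDC25A, a phosphatase that activates CDK2, had 18.2 and 21.1 CPM in these groups, against 30.4 CPM in vehicle (-0.74 and -0.53, edgeR adjusted p = 1.17e-13 and 7.49e-09). FBXO4, a ubiquitin ligase subunit, was higher with wortmannin, SR and CR, at 9.15, 9.67 and 8.17 CPM against 6.25 CPM in vehicle (0.55, 0.63 and 0.39, edgeR adjusted p = 0.000115, 1.32e-05 and 0.00373). Of the 11 genes, 1 was higher and 5 lower with wortmannin, 3 and 3 at the high dose of SR and 1 and 2 at that of CR, where the medians were -0.11, -0.03 and -0.02. Of all genes, 25.3%, 23.9% and 35.1% were called in these comparisons, so the count in CR was below the share of all genes and is no result about the list.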
